A study of Rattus norvegicus with 18 samples.

Results

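The genes described here code for the fibrous matrix that lies between the fibres of skeletal muscle. They are 38 genes, each named by a single symbol on the array, out of 14217 genes that the array names in this way. Each was read from 1 probe set, the one with the highest mean over all 18 arrays. They fall into 15 collagens, 8 elastic fibre genes, 8 matrix glycoproteins and 7 genes of collagen processing and crosslinking. The members were chosen by gene name, with earlier results of these data known.

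Interstitial collagens are secreted as procollagens, trimmed by proteases outside the cell, assembled into fibrils and joined by covalent crosslinks that lysyl oxidases start. Elastic fibres are built from an elastin core on a scaffold of fibrillin microfibrils, while glycoproteins such as fibronectin, periostin and tenascin-C tie the fibres to cells and to each other. In muscle this matrix forms the endomysium and perimysium, is made largely by fibroblasts and fibro-adipogenic progenitors, and is remodelled after injury.

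Affymetrix arrays were hybridised with RNA from the soleus, a postural calf muscle, of 9 male rats. Chronic kidney disease had been induced in 5 rats by 5/6 nephrectomy (SNX), the removal of most of the renal mass, and the other 4 rats were sham operated. After 8 weeks the right femoral artery of every rat, sham and SNX alike, was tied off and a piece removed, and both soleus muscles were taken 24 hours after that. The 4 groups are the left and the right soleus of sham rats (4 arrays each) and the left and the right soleus of SNX rats (5 arrays each). Each array holds 1 muscle of 1 rat, and rats are called here by the numbers in the sample titles, sham rats 11, 13, 15 and 17 and SNX rats 12, 18, 20, 37 and 49. The left muscle comes from an animal whose other limb was ligated, so no group comes from an animal without ligation, and the right side and ligation cannot be told apart. Strain and age are not given in the sources used here. A source field in the labels calls all sham arrays nonischemic and all SNX arrays ischemic, against the design text, so groups are named by operation and side.

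All values are log2 probe set values as the authors normalized them, so a difference of 1 is a 2-fold difference. The level of one probe set cannot be set against that of another. The 4 marker genes of muscle fibres of any type (Acta1, Ckm, Des and Mb) averaged 15.02 to 15.27 over the arrays, and 6 slow fibre markers averaged 11.1 to 15.0, with the lowest value in the right soleus of SNX rat 20. Averaged over all other arrays, the correlation was 0.978 for the right array of sham rat 17 and 0.980 for that of SNX rat 49, which stood apart, against 0.987 or more for the remaining 16. Of the 38 members 35 had means above 3.297, the median over probe sets, and Col18a1, Fbln1 and Emilin1 lay below it. In bulk muscle, fewer cells of a type and less RNA per cell cannot be told apart.

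Promoters are shown for those members that both passed the test of right against left muscle and were higher on the right in all 9 rats, as far as the sequence table holds them, since these are the members that moved together most regularly. The sequences are from RefSeq (assembly GRCr8) and run from 250 bases before to 50 bases after the gene start, 5′ to 3′ on the gene's strand. Capitals mark matches, on either strand, to any of 5 short motifs: CCAAT (bound by NF-Y), GGGCGG (the GC box of Sp1), TATAAA (the TATA box), TGANTCA (bound by AP-1) and CAGACA (the CAGA box bound by Smad3 and Smad4). The windows lie at chr20:11473395-11473694 on the + strand for Col18a1, chr9:55090102-55090401 on the - strand for Col5a2, chr9:98886909-98887208 on the - strand for Col6a3, chr2:185981557-185981856 on the - strand for Ecm1 and chr2:140677811-140678110 on the + strand for Postn.
Col18a1: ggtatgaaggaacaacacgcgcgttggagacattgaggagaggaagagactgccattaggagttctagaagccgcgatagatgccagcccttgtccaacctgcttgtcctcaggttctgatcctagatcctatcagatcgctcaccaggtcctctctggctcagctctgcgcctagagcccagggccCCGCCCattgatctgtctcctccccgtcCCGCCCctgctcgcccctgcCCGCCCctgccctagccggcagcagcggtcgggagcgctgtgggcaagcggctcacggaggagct
Col5a2: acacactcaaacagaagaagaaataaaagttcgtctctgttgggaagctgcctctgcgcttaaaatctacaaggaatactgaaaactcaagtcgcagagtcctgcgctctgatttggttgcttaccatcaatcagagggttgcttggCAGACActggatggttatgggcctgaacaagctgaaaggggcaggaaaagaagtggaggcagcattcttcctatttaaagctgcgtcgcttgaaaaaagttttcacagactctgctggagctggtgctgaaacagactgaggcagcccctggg
Col6a3: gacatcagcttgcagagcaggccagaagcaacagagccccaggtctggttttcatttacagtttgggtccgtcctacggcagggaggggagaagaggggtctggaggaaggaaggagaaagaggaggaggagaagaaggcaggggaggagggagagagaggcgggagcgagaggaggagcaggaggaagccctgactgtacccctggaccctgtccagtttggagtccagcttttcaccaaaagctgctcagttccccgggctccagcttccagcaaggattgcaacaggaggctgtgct
Ecm1: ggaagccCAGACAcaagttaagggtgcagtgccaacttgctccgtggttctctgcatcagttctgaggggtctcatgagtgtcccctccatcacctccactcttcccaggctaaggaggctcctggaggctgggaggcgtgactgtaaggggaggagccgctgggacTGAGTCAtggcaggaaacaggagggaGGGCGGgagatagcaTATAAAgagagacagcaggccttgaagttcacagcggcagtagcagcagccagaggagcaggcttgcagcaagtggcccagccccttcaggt
Postn: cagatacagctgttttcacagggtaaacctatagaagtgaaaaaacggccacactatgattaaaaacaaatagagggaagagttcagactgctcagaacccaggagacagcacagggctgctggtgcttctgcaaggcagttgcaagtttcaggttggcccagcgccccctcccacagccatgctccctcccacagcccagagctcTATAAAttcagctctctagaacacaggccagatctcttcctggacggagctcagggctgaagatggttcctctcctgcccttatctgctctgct

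Postn has TATAAA at -44 to -39 from the gene start, and Ecm1 has it at -42 to -37. Ecm1 also has GGGCGG at -57 to -52, CAGACA at -243 to -238 and TGANTCA at -83 to -77, the last of which reads the same on both strands. Col5a2 has CAGACA at -103 to -98, Col18a1 has GGGCGG on the other strand at 3 positions (-63, -35 and -15), and the window of Col6a3 holds none of the 5 motifs. None of these matches overlap. The table holds 24 of the 38 members. CAGACA occurred in 10 of these 24 promoters (41.7%), against 21.1% of all 33469 promoters in the table and 17.4% of the 13193 promoters of genes on the array. TATAAA occurred in 4 (16.7%, against 14.2% and 8.47%), GGGCGG in 13 (54.2%, against 33.1% and 55.8%), CCAAT in 5 (20.8%, against 37.5% and 36.8%) and TGANTCA in 2 (8.33%, against 7.33% and 5.59%). These shares describe letters in the windows, and no factor was measured.

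Matrix genes were higher in the ligated right soleus than in the left soleus of the same rats. Averaged over sham and SNX rats with equal weight, 10 of the 38 members rose and none fell (limma on 1 right minus left difference per rat, adjusted p under 0.05). The 10 were the collagens Col3a1, Col5a2, Col6a2, Col6a3, Col12a1, Col14a1 and Col18a1, the glycoproteins Postn and Ecm1, and Pcolce, an enhancer of procollagen cleavage. Their rises ran from 0.37 for Col14a1 to 1.11 for Postn, a 2.16-fold rise. The 10 are 26.3% of the members, against 3.51% of all 31042 probe sets (552 higher and 538 lower). Of the 38 members 35 had a difference above 0, with a median of 0.54, while 40.2% of the 14217 genes lay above 0, with a median of -0.01. Another 15 members had an unadjusted p under 0.05, all above 0. That makes 25 of the 38 members, against 8017 of the 31042 probe sets (25.8%).

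A fit of all 18 arrays with a random block for the rat gave the same differences with other errors, and 17 members rose in it, against 9.05% of all probe sets (2808). It kept 8 of the 10 and lost Col3a1 (adjusted p = 0.126) and Col14a1 (adjusted p = 0.138). The 9 members it added were Col5a3, Col6a1, Col8a1, Mfap5, Fn1, Tnc, Thbs4, Lox and Loxl2. Below, "rose" and "passed" refer to 1 difference per rat unless the block is named.

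Most rats shared the direction, but the calls changed when single animals were left out. Leaving out 1 rat at a time, the count of 10 fell to 0 without sham rat 11, 13, 15 or 17 or SNX rat 18 or 37, to 2 without SNX rat 12 and to 4 without SNX rat 49, and it rose to 16 without SNX rat 20. Over all probe sets the same fits called between 100 and 926, against 1090 with all rats. Without both sham rat 17 and SNX rat 49, whose right arrays stood apart, 2 members and 377 probe sets were called.

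**Figure D1:**
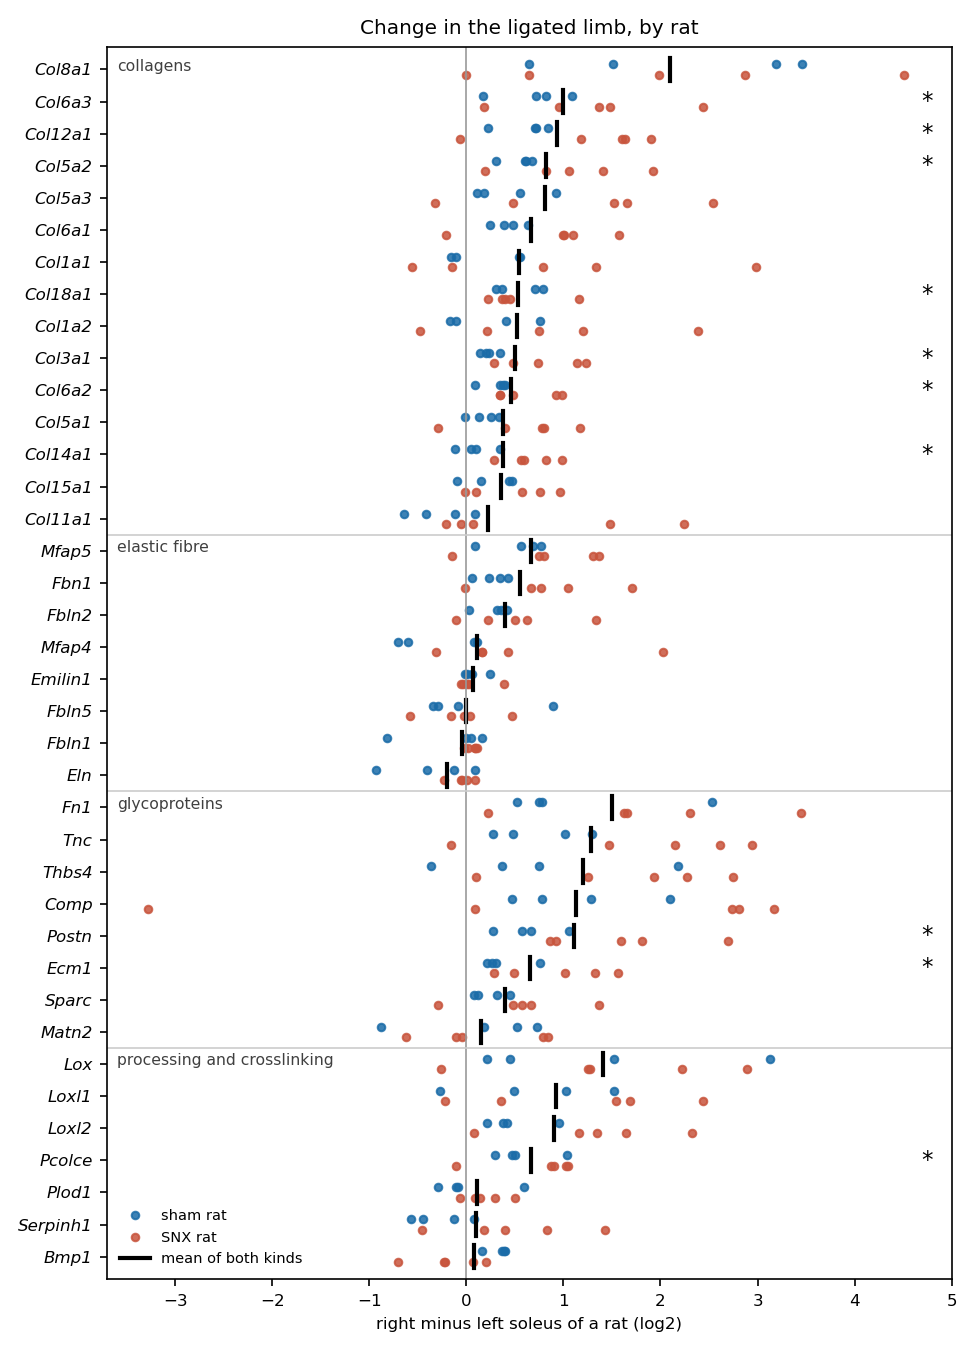
Right minus left log2 difference of each rat for the 38 members, by role, with sham rats in blue, SNX rats in red, the mean of both kinds as a black bar and an asterisk for an adjusted p under 0.05. Collagens, glycoproteins and crosslinking genes lie mostly to the right of 0, the elastic fibre genes have a median of 0.09, and one point far to the left is Comp in SNX rat 20.

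All 15 collagens had a right minus left average above 0, with a median of 0.53, and 7 rose. Among the fibril-forming collagens 2 rose, Col3a1 and Col5a2. Col3a1 codes for type III collagen, the thin fibrils of the endomysium. In the left and the right soleus it read 12.30 and 12.44 in sham rat 11, 13.08 and 13.28 in rat 13, 12.47 and 12.82 in rat 15, and 13.02 and 13.25 in rat 17. In SNX rats the left and right values were 12.23 and 12.71 (rat 12), 10.37 and 11.51 (rat 18), 12.33 and 12.62 (rat 20), 11.94 and 12.68 (rat 37), and 11.70 and 12.93 (rat 49). The right value was the higher one in all 9 rats, although left and right arrays overlapped in both kinds of rat, and SNX rat 18 was lowest in both limbs. The average rise was 0.50 ± 0.10 (SE, 9 rats, adjusted p = 0.0411, and 0.126 with the block).

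Col5a2 codes for a chain of type V collagen, which sets the diameter of the fibrils it enters. Left and right values were 10.19 and 10.79, 10.98 and 11.59, 10.23 and 10.54, and 10.45 and 11.13 in sham rats 11, 13, 15 and 17. Among SNX rats 12, 18, 20, 37 and 49 they were 9.80 and 10.62, 8.64 and 9.70, 9.78 and 9.97, 9.61 and 11.02, and 9.39 and 11.31. The right muscle was higher in every rat, and the left arrays of SNX rats lay below those of every sham rat. Its average rise was 0.82 ± 0.16 (adjusted p = 0.0398), and a further probe set of Col5a2 also passed.

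The type I collagen genes, which code for the chains of the main fibril of muscle and tendon, did not pass. Col1a1 was higher on the right in 5 of 9 rats, with an average difference of 0.54 ± 0.34, and Col1a2 in 6 of 9 rats, with 0.52 ± 0.27. The spread between rats was large, and in the left soleus of SNX rats Col1a1 ran from 8.81 in rat 12 to 11.71 in rat 20. For the other type V chains the average differences were 0.37 ± 0.14 (Col5a1) and 0.81 ± 0.28 (Col5a3), without a call, although Col5a3 passed with the block (adjusted p = 0.0442). Col11a1, a minor fibrillar chain, was higher on the right in 4 of 9 rats (0.22 ± 0.27).

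Type VI collagen forms beaded filaments around muscle fibres, and 2 of its 3 measured chains rose. Col6a3 read 10.07 and 11.16 (left and right) in sham rat 11, 10.78 and 11.50 in rat 13, 10.54 and 10.72 in rat 15, and 10.59 and 11.41 in rat 17. The pairs of SNX rats 12, 18, 20, 37 and 49 were 9.77 and 10.73, 8.92 and 10.28, 10.16 and 10.34, 9.80 and 11.28, and 9.32 and 11.76. Among SNX rats every right array lay above every left array, and among sham rats the ranges overlapped. The average rise of Col6a3 was 0.99 ± 0.21 (adjusted p = 0.0481), a 1.99-fold rise.

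Col6a2 rose less, from 6.04, 6.31, 6.11 and 6.29 in the left soleus to 6.13, 6.66, 6.49 and 6.69 in the right soleus of sham rats 11, 13, 15 and 17. For SNX rats 12, 18, 20, 37 and 49 the left values were 5.78, 5.06, 6.00, 5.44 and 5.22 and its right values 6.13, 5.54, 6.35, 6.42 and 6.15. Left and right arrays overlapped within each kind of rat, but no rat had the lower value on the right, and the average rise was 0.46 ± 0.08 (adjusted p = 0.032). Col6a1, the remaining chain, differed by 0.66 ± 0.16 on average without a call (adjusted p = 0.0633, and 0.0404 with the block), and SNX rat 20 alone had its lower value on the right.

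Collagens XII and XIV bind to the surface of fibrils, and both genes rose. For Col12a1 the left and right values were 6.23 and 6.95, 7.02 and 7.72, 7.25 and 7.47, and 6.65 and 7.49 in sham rats 11, 13, 15 and 17. Among SNX rats 12, 18, 20, 37 and 49 they were 5.25 and 7.15, 5.28 and 6.88, 6.82 and 6.76, 6.10 and 7.28, and 5.62 and 7.26. The right values of SNX rats lay close together, from 6.76 to 7.28, and rat 20 was the only animal without a higher right value. The average rise of Col12a1 was 0.94 ± 0.19 (adjusted p = 0.0459). Col14a1 read 8.12, 9.23, 8.42 and 8.70 on the left and 8.01, 9.58, 8.52 and 8.74 on the right in the sham rats, in the same order. In SNX rats it read 7.63, 6.83, 7.61, 7.48 and 7.48 on the left and 8.23, 7.66, 7.90, 8.04 and 8.46 on the right. Sham left and right arrays overlapped almost fully, while the right arrays of SNX rats all lay above their left arrays. Its average rise was 0.37 ± 0.08 (adjusted p = 0.0433, and 0.138 with the block).

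Col18a1, which codes for the collagen whose end fragment is endostatin, was dim, with group means of 2.65 to 3.59. On the left it read 2.63, 3.42, 2.77 and 3.37 in sham animals 11, 13, 15 and 17 and 2.57, 2.58, 3.03, 2.43 and 2.66 in SNX rats 12, 18, 20, 37 and 49. The right values were 3.34, 4.21, 3.08 and 3.74 in sham rats and 3.02, 2.80, 3.40, 2.82 and 3.82 in SNX rats. All 9 rats had the higher value on the right, with overlapping ranges, and the average rise was 0.53 ± 0.10 (adjusted p = 0.0389). Col15a1, a related collagen at the outer face of the basement membrane, had a difference of 0.36 ± 0.11 without a call. Col8a1, a short-chain network collagen of vessel walls, was chosen for mention after its values were seen, as the member with the largest average difference. It ran from 4.98 to 6.82 on the left and from 6.92 to 8.47 on the right in sham rats, without overlap, while the SNX ranges of 4.07 to 5.11 and 4.61 to 8.59 overlapped. The difference was 2.10 ± 0.51 and did not pass (adjusted p = 0.0637, and 0.0109 with the block), with the difference of a rat reaching 4.51 in SNX rat 49.

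**Figure D2:**
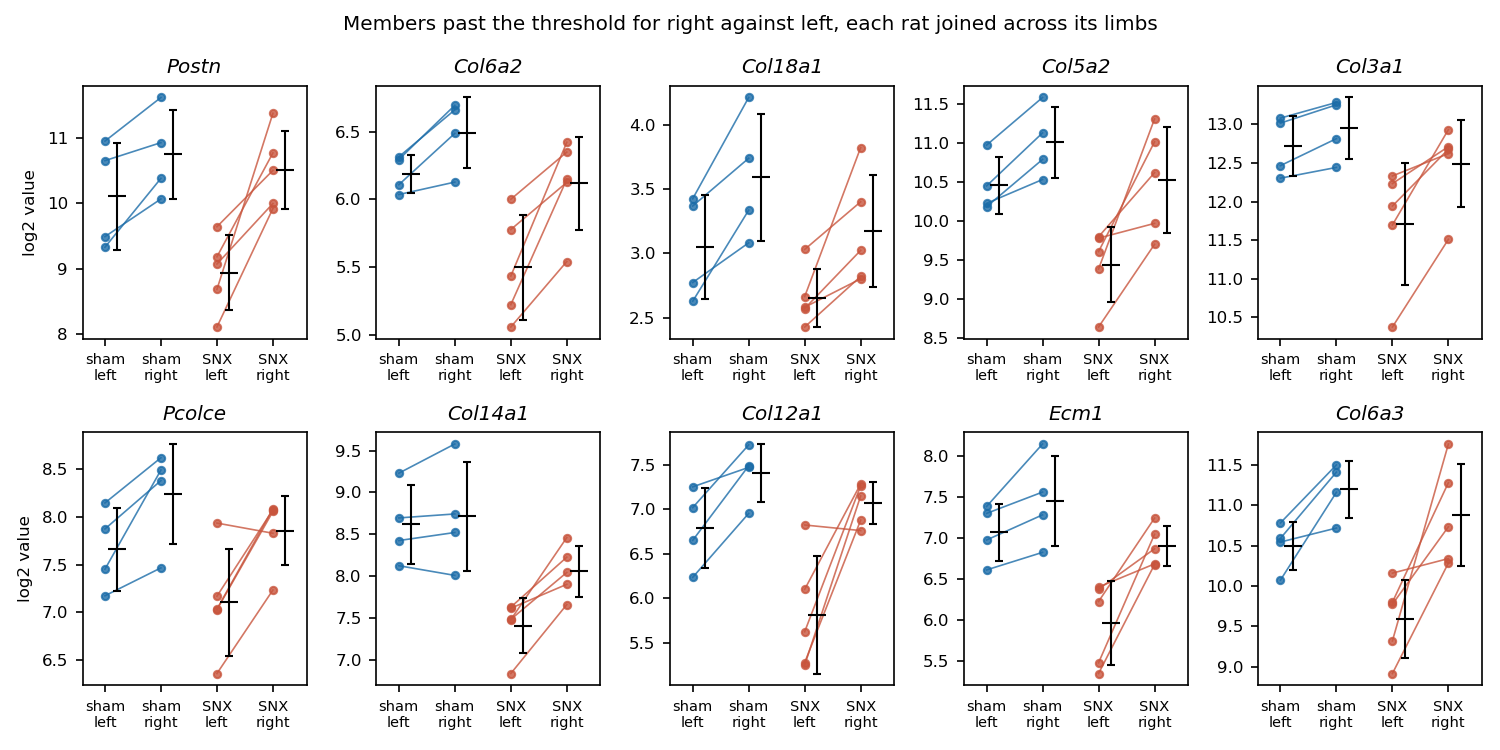
Log2 value of the 10 members that rose, in the 4 groups, with each rat's left and right array joined by a line (sham blue, SNX red) and the group mean ± SD in black (n = 4 sham and 5 SNX rats). Lines slope upward in nearly all rats, and for Col14a1 the SNX left arrays (6.83 to 7.63) lie below all sham left arrays (8.12 to 9.23).

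Elastic fibre genes had a median right minus left average of 0.09, the lowest of the 4 roles, and no test compared the roles. None of the 8 passed, 5 lay above 0 and 3 below (lowest adjusted p = 0.0599, for Mfap5, and 0.0193 with the block). The 4 members with the lowest levels, Emilin1, Fbln1, Eln and Fbln5, lay between -0.20 and 0.07, and the other 4 between 0.11 and 0.67. Mfap5, which codes for a glycoprotein of the microfibril, read 9.56, 10.51, 9.80 and 10.35 on the left and 10.33, 11.21, 10.36 and 10.44 on the right in sham rats 11, 13, 15 and 17. SNX rats 12, 18, 20, 37 and 49 had 9.32, 8.78, 9.33, 8.98 and 8.88 on the left and 10.12, 9.53, 9.18, 10.28 and 10.24 on the right. Only SNX rat 20 had the lower value on the right, and the average difference was 0.67 ± 0.16. Fbn1, which codes for fibrillin-1, the backbone of the microfibril, read 10.10, 10.62, 9.96 and 10.53 on the left and 10.15, 11.04, 10.18 and 10.88 on the right in sham rats. Its SNX values were 9.72, 9.15, 9.54, 9.77 and 9.45 on the left and 10.39, 9.92, 9.53, 10.82 and 11.16 on the right, and the difference was 0.55 ± 0.15 (adjusted p = 0.0828). The left and right ranges of Fbn1 overlapped in both kinds of rat.

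Fbln5, which codes for fibulin-5, an organiser of elastin assembly, had no common direction between limbs. It read 3.69, 4.40, 4.34 and 4.33 on the left and 4.58, 4.11, 3.99 and 4.25 on the right in sham rats 11, 13, 15 and 17. Among SNX rats 12, 18, 20, 37 and 49 it read 3.67, 3.71, 4.25, 3.75 and 3.74 on the left and 3.52, 3.75, 3.67, 4.22 and 3.72 on the right. It was higher on the right in 3 of 9 rats, with an average difference of -0.0035 ± 0.15 whose sign turned with the rats included. Elastin itself (Eln), dim at group means of 3.33 to 3.69, was also higher on the right in 3 rats (-0.20 ± 0.09). Fbln2 (0.40 ± 0.13) was higher on the right in 8 rats, and Mfap4 (0.11 ± 0.23), Emilin1 (0.07 ± 0.05) and Fbln1 (-0.05 ± 0.09) in 6. Emilin1 and Fbln1 lay at group means of at most 2.95, where a probe set carries little signal.

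Glycoproteins had the largest median difference of the 4 roles, 1.12, with all 8 above 0 and 2 past the test. Postn codes for periostin, a matricellular protein of remodelling connective tissue. It read 9.33, 10.95, 9.49 and 10.65 on the left and 10.38, 11.62, 10.07 and 10.93 on the right in sham rats 11, 13, 15 and 17. Among SNX rats 12, 18, 20, 37 and 49 the left values were 9.64, 8.11, 9.07, 9.18 and 8.68 and the right values 10.50, 9.92, 9.997, 10.77 and 11.38. All SNX right arrays lay above all SNX left arrays, sham left and right arrays overlapped, and no rat went the other way. Its rise of 1.11 ± 0.19 had the lowest adjusted p of the members (0.0307).

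Ecm1, which codes for extracellular matrix protein 1, read 6.61, 7.38, 6.97 and 7.30 on the left and 6.82, 8.14, 7.28 and 7.56 on the right in sham rats. In SNX rats it read 6.37, 5.35, 6.40, 6.22 and 5.48 on the left and 6.87, 6.68, 6.68, 7.24 and 7.04 on the right. SNX left and right arrays did not overlap, and the average rise was 0.66 ± 0.14 (adjusted p = 0.0475). Tnc and Thbs4, which code for tenascin-C and thrombospondin-4, both matricellular proteins of stretched or injured tissue, had larger differences and a larger spread. Tnc read 6.66, 7.98, 7.75 and 7.19 on the left and 7.96, 8.46, 8.02 and 8.20 on the right in sham rats, and 5.33, 5.07, 7.37, 7.01 and 5.85 against 7.94, 7.22, 7.21, 8.48 and 8.79 in SNX rats. Rat 20 was the only SNX rat without a higher right value, and the average difference was 1.28 ± 0.31 (adjusted p = 0.0622, and 0.0157 with the block). Thbs4 read 10.004, 11.58, 10.96 and 9.88 on the left and 10.76, 11.95, 10.59 and 12.05 on the right in sham rats, and 8.74, 9.40, 10.28, 9.81 and 8.53 against 11.02, 11.33, 10.38, 11.06 and 11.28 in SNX rats. Its SNX arrays did not overlap between limbs, sham rat 15 was lower on the right, and the difference was 1.20 ± 0.33 (adjusted p = 0.0814, and 0.0186 with the block).

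Fibronectin (Fn1), which links cells to the matrix through integrins, was higher on the right in all 9 rats. It ran from 9.44 to 10.57 on the left and from 10.19 to 12.56 on the right in sham rats, and from 8.19 to 9.20 and from 9.42 to 12.20 in SNX rats. The highest right values were those of sham rat 17 and SNX rat 49, the arrays that stood apart, and the difference of 1.496 ± 0.34 did not pass (adjusted p = 0.0554, and 0.0123 with the block). Sparc, a collagen-binding chaperone of fibril assembly, had a difference of 0.40 ± 0.14, and Matn2, a filament-forming adaptor, 0.16 ± 0.21. Comp, a cartilage and tendon protein, had 1.13 ± 0.67, with 8 rats above 0 and SNX rat 20 at -3.27.

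Of the 7 processing and crosslinking genes 1 rose, and all 7 lay above 0, with a median of 0.66. Pcolce, whose protein speeds the removal of the procollagen C-propeptide, read 7.17, 8.15, 7.45 and 7.87 on the left and 7.47, 8.62, 8.49 and 8.38 on the right in sham rats 11, 13, 15 and 17. The SNX rats, in the order 12, 18, 20, 37 and 49, had 7.03, 6.36, 7.94, 7.03 and 7.17 on the left and 8.06, 7.23, 7.83, 8.09 and 8.07 on the right. Rat 20 had the highest SNX left value and the only lower right value, and the average rise was 0.66 ± 0.13 (adjusted p = 0.0427). Bmp1, the protease whose activity Pcolce enhances, had a difference of 0.08 ± 0.09.

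The lysyl oxidases, which oxidise lysines to start crosslinks, had larger differences, without a call for 1 difference per rat. Lox read 8.01, 9.34, 8.90 and 7.54 on the left and 9.54, 9.78, 9.11 and 10.67 on the right in sham rats, and 8.25, 7.75, 8.35, 8.53 and 8.05 against 9.52, 8.999, 8.09, 10.76 and 10.94 in SNX rats. Its highest values were the right arrays of SNX rats 49 and 37 and of sham rat 17, and the difference was 1.40 ± 0.39 (adjusted p = 0.0851, and 0.0206 with the block). Loxl2 read 6.27, 7.53, 6.62 and 6.36 on the left and 6.64, 7.95, 6.84 and 7.31 on the right in sham rats, and 5.48, 4.53, 5.58, 5.78 and 5.56 against 6.82, 5.69, 5.66, 7.43 and 7.89 in SNX rats. Every rat was higher on the right, by 0.90 ± 0.21 on average (adjusted p = 0.0565, and 0.0424 with the block). Loxl1, a lysyl oxidase of elastic fibres, had 0.93 ± 0.30. The collagen chaperone gene Serpinh1 and the lysyl hydroxylase gene Plod1 had 0.10 ± 0.18 and 0.11 ± 0.10, each higher on the right in 5 of 9 rats.

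Counted by rat, 9 members were higher on the right in all 9 animals, namely Col3a1, Col5a2, Col6a2, Col6a3, Col18a1, Fn1, Postn, Ecm1 and Loxl2. Of all probe sets 2.85% (886) met that rule, and 847 probe sets but no member were lower on the right in every rat. A further 14 members were higher on the right in 8 rats. In sham rats 29 to 33 of the 38 members were higher on the right, and in SNX rats 12, 18, 37 and 49 it was 33 to 37. SNX rat 20 stood apart from the other rats, with 12 members higher on the right and a median difference of -0.08. Its left soleus had the highest mean over the 38 members among SNX left arrays, 7.59. Its right soleus had the lowest such mean among right arrays, 7.44. The right soleus of rat 20 also had the lowest slow fibre mean (11.1) and the lowest macrophage mean of any right array (5.54). The part of the slow fibre and macrophage levels in this difference was not tested.

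**Figure D3:**
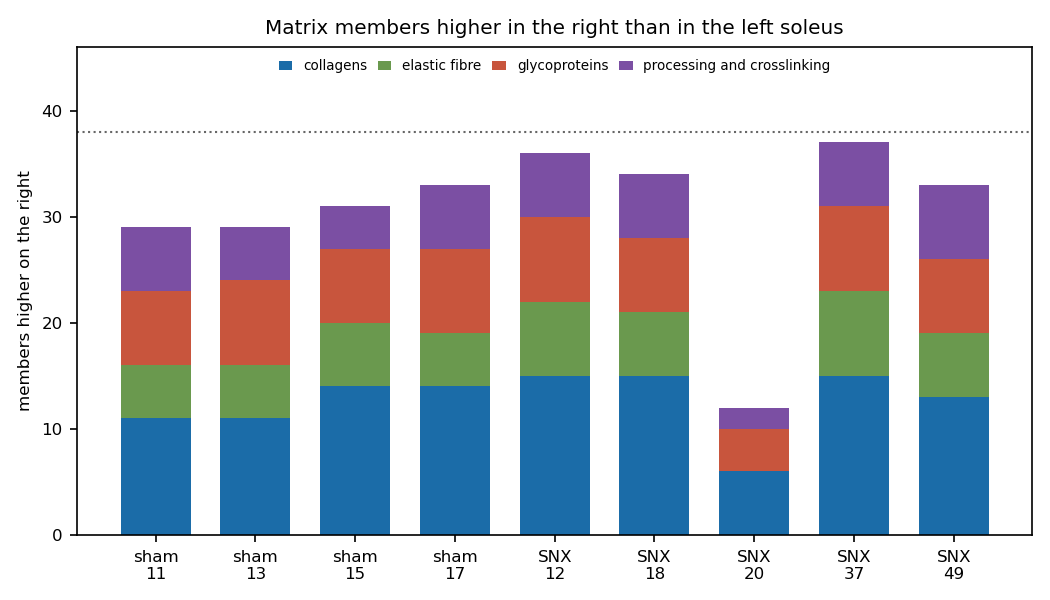
Number of the 38 members with a higher value in the right than in the left soleus of each rat, stacked by role, with the dotted line at 38. SNX rat 20 has 12, none of them an elastic fibre gene, and the other 8 rats have 29 to 37.

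Within each kind of rat, the right minus left difference had a median over members of 0.32 in sham rats, with 33 of 38 above 0, and 0.79 in SNX rats, with 35 of 38 above 0. Without a term for the rat no member passed in sham rats (lowest adjusted p = 0.229; 4 members with an unadjusted p under 0.05) and none in SNX rats (23 with an unadjusted p under 0.05), against 0.148% and 0.0451% of all probe sets. Of all probe sets 12.3% in sham rats and 7.92% in SNX rats had an unadjusted p under 0.05. When limbs were paired through a random block for the rat, 2 members rose in SNX rats, against 0.319% of all probe sets. These were Col12a1 (1.25 ± 0.24, adjusted p = 0.0424) and Col6a3 (1.29 ± 0.25, adjusted p = 0.0483), and over the other settings their adjusted p reached 0.944 and 0.960. With the same pairing as a fixed term for the rat, no member passed in either kind of rat (adjusted p = 0.175 for Col12a1 and 0.188 for Col6a3 in SNX rats), against 0.0193% of all probe sets in SNX and 0.377% in sham rats. The blocked count in SNX rats was 0 without any 1 of the other 8 rats and 8 without SNX rat 20. Over all probe sets the same fits called 2 to 79 without another rat and 147 without SNX rat 20, against 99 with all rats. In sham rats no member passed with the block, against 1.8% of all probe sets (lowest adjusted p = 0.0933, for Col8a1).

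The role medians for sham and for SNX rats were 0.30 and 0.81 for collagens, 0.06 and 0.28 for elastic fibre genes, 0.69 and 1.34 for glycoproteins, and 0.49 and 0.75 for processing genes. The difference between both changes lay above 0 for 32 of 38 members, with a median of 0.46. No member passed the test of that difference, with or without the random block or with the fixed term (0% of all probe sets in each fit), so a larger change in SNX rats was not shown. An unadjusted p under 0.05 was found for no member without a term for the rat, for 1 with the random block and for 4 with the fixed term, against 1.41%, 3.07% and 2.97% of all probe sets. The 4 were Col3a1, Col14a1 and Postn, whose right minus left difference was higher in SNX rats, and Bmp1, whose difference was lower in SNX rats (adjusted p = 0.977 for each). For Postn the difference was 0.93 ± 0.61, or ± 0.38 with the fixed term, and without a term it was for Tnc 1.03 ± 0.67 and for Col6a3 0.59 ± 0.44.

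SNX rats had lower values of most matrix members than sham rats, but no member passed the test in either limb or averaged over limbs. In the left soleus 37 of 38 members lay below 0, with a median of -0.83, and 22 had an unadjusted p under 0.05, against 6.25% of all probe sets (limma, lowest adjusted p = 0.352, for Col14a1). In the right soleus 34 lay below 0, with a median of -0.38, and 5 had an unadjusted p under 0.05, against 9.25% of all probe sets. Averaged over limbs with 1 value per rat, 37 lay below 0, with a median of -0.59, and 16 had an unadjusted p under 0.05, against 8.36% of all probe sets (lowest adjusted p = 0.467). Over all genes these medians were 0.01, 0.02 and 0.02. The background of calls was 0.00644% of probe sets in the left limb, with and without the block, and 0% in the right limb in both fits and for the average. With the rat as a block no member passed either.

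In the left soleus 9 members did not overlap, with every SNX array below every sham array, against 1.47% of all probe sets (457) that met this rule. These were Col5a2, Col6a2, Col14a1, Fbn1, Mfap5, Fn1, Ecm1, Matn2 and Loxl2. The left values of Col14a1 lay between 6.83 and 7.63 in SNX rats and between 8.12 and 9.23 in sham rats, a difference of -1.21 ± 0.29. For Ecm1 the ranges were 5.35 to 6.40 and 6.61 to 7.38 (-1.10 ± 0.28), for Mfap5 8.78 to 9.33 and 9.56 to 10.51 (-0.999 ± 0.27), and for Loxl2 4.53 to 5.78 and 6.27 to 7.53 (-1.31 ± 0.46). In the right soleus 1 member, Mfap5, did not overlap (9.18 to 10.28 in SNX and 10.33 to 11.21 in sham rats), against 0.483% of all probe sets (150). No member had every SNX array above every sham array in either limb, a rule met by 324 probe sets in the left limb and 2412 in the right limb.

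The role medians in the left soleus were -0.90 for collagens, -0.56 for elastic fibre genes, -1.13 for glycoproteins and -0.56 for processing genes, and in the right soleus -0.37, -0.33, -0.40 and -0.38. With 1 value per rat, the lowest unadjusted p of the averages belonged to Fbln5 (-0.41 ± 0.09, adjusted p = 0.467), followed by Mfap5 (-0.86 ± 0.20) and Col14a1 (-0.93 ± 0.27). The order depended on the fit. With the block Col14a1 had the lowest p (± 0.21, adjusted p = 0.257), and Fbln5 had a wider error (± 0.16, adjusted p = 0.464). For Lox the SNX minus sham difference was -0.26 ± 0.53 on the left and -0.11 ± 0.53 on the right (adjusted p = 0.955 and 0.913). The 4 members above 0 in the right soleus were Col1a1, Col1a2, Col11a1 and Emilin1, at 0.01 to 0.18. The mean over all 38 members ran from 6.47 to 7.59 in SNX left arrays, 7.33 to 8.33 in sham left arrays, 7.44 to 8.23 in SNX right arrays and 7.78 to 8.67 in sham right arrays. The left array of SNX rat 18 was the lowest array for 20 of the 38 members, and the right array of sham rat 13 the highest for 18. The comparisons of limbs and of kinds of rat share these arrays, so their values are not independent of each other.

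**Figure D4:**
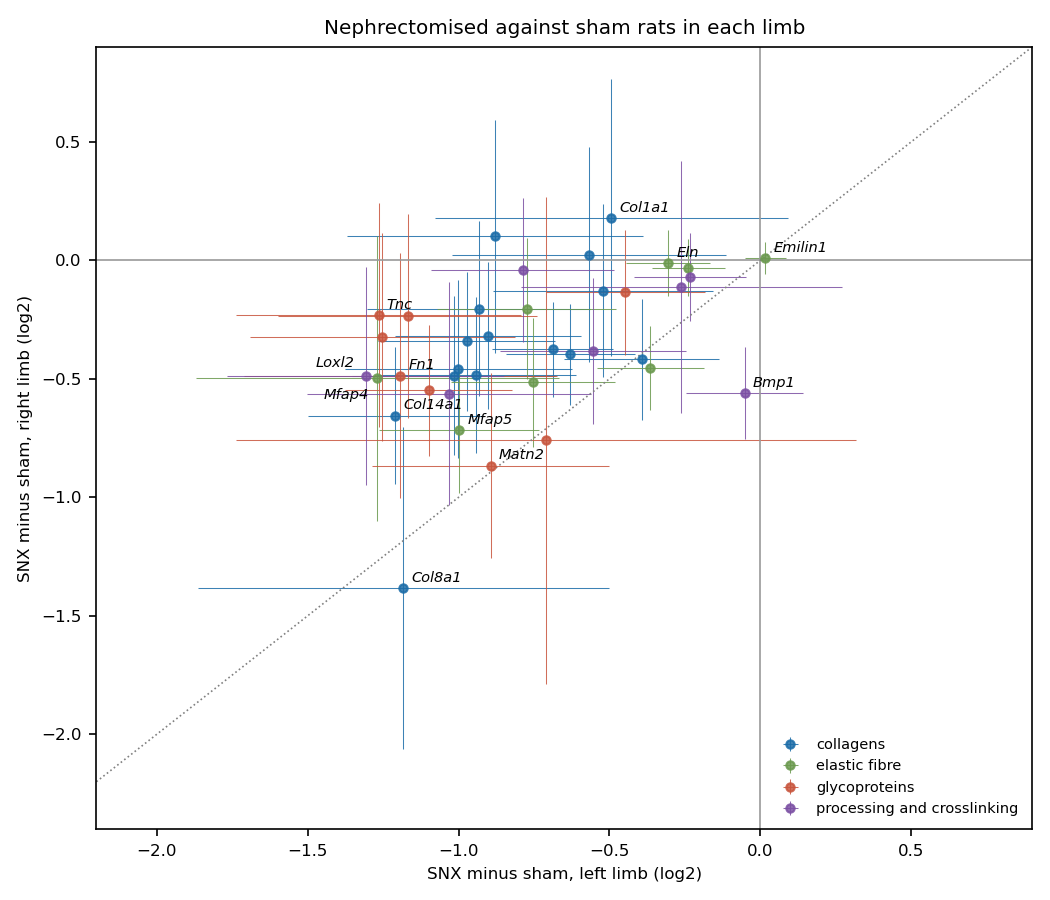
SNX minus sham log2 difference of the 38 members in the left (x axis) and the right soleus (y axis), coloured by role, with standard errors as bars and the dotted line marking equal differences. Nearly all points lie left of 0, with a median of -0.83 on the left and -0.38 on the right, and no point passed the test.

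Other genes of fibrous matrix and collagen processing were taken from 2 further lists. Of 40 other fibrous matrix genes 33 were on the array, 17 of them below the median of probe sets. Right minus left averaged 0.01 as the list median, 22 lay above 0, and 1 rose, Aebp1, which codes for a collagen-binding protein (0.85 ± 0.14, adjusted p = 0.0266). With the block 4 rose, Aebp1, Efemp2, Emilin2 and Tgfbi. Of 24 other collagen processing genes 17 were on the array, 13 lay above 0 with a median of 0.24, none rose and 1 fell. The gene that fell was P4ha1, which codes for the catalytic subunit of prolyl 4-hydroxylase, the enzyme that stabilises the triple helix (-0.56 ± 0.09, adjusted p = 0.0284). With the block 5 of them rose and P4ha1 fell. The 5 were Fkbp10, P3h1, P4hb and Plod3, which act on procollagen in the endoplasmic reticulum, and Tgm2, which codes for a transglutaminase that crosslinks proteins, with differences of 0.12 for P3h1 to 0.77 for Tgm2. Between SNX and sham rats neither list had a member past the test, with medians of -0.13 and -0.35 in the left limb.

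Marker lists of cell types that make or accompany matrix were read on the same arrays. Of 10 fibroblast markers 9 were on the array, all 9 below 0 for SNX against sham in the left soleus, with a median of -0.82 and none past the test. Averaged over kinds of rat, 8 of the 9 were higher on the right (median 0.35), and 1 rose, Thy1, a surface marker of fibroblasts (0.35 ± 0.07, adjusted p = 0.039). With the block none of the 9 passed. The mean fibroblast level ran from 8.47 to 9.44 in sham left, 8.25 to 9.76 in sham right, 7.76 to 8.55 in SNX left and 8.40 to 8.82 in SNX right arrays. Of 12 macrophage markers all 12 were higher on the right on average (median 1.22) and 1 rose, Cd14, a co-receptor for lipopolysaccharide (2.36 ± 0.51, adjusted p = 0.0495). With the block 8 of the 12 rose, Aif1, C1qb, Cd14, Cd163, Csf1r, Lyz2, Mrc1 and Tyrobp, by 0.69 (C1qb) to 2.36 (Cd14). All 12 were lower in the left soleus of SNX rats (median -0.9995, none past the test). Their mean ran from 5.79 to 6.65 in sham left, 6.44 to 8.99 in sham right, 5.19 to 5.77 in SNX left and 5.54 to 8.34 in SNX right arrays, with the highest values on the right arrays of sham rat 17 and SNX rat 49. The part of either list in the differences of the members was not tested.

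Tendon markers (4 of 6 on the array) had a median of 0.57 for right against left and -0.60 for SNX against sham in the left limb, and their mean was lowest, 6.53, in the left soleus of SNX rat 12. Schwann cell markers (5 of 7) had medians of 0.76 and -1.83, and adipocyte markers (5 of 6) of -0.0042 and -1.63. Cartilage markers (4 of 5) averaged between 2.62 and 2.78 on all arrays, with Acan, Col2a1 and Matn1 below the median of probe sets. Of 6 endothelial markers on the array Kdr, the main receptor of VEGF (0.85 ± 0.10), and the adhesion molecule gene Pecam1 (0.34 ± 0.04) rose, and Tek, the angiopoietin receptor (-0.58 ± 0.10), fell in the right soleus. Of 7 pericyte and smooth muscle markers the growth factor receptor gene Pdgfrb (0.70 ± 0.10) rose and the G protein regulator gene Rgs5 (-0.63 ± 0.10) fell, and Cspg4 (0.64) rose as well with the block. Medians of the 4 neutrophil, 5 fast fibre and 6 slow fibre markers were 0.23, -0.05 and 0.06, and that of the 4 genes of all muscle fibres was -0.01, with none past the test.

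**Figure D5:**
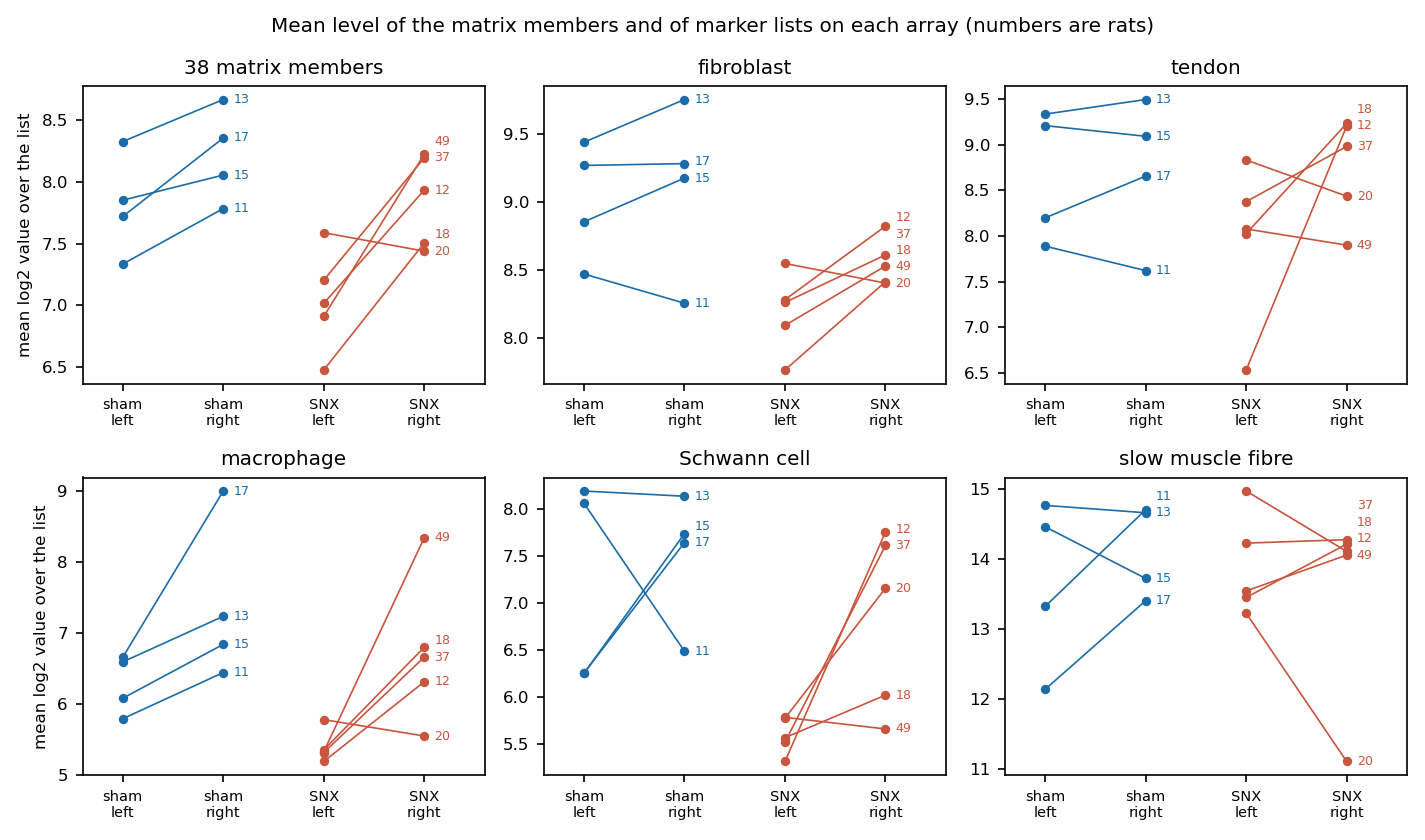
Mean log2 value of the 38 members and of 5 marker lists on each array, with each rat's limbs joined and the rat number beside its right array. The member and fibroblast means are lowest among SNX left arrays (6.47 and 7.76), the macrophage mean peaks on the right arrays of sham rat 17 and SNX rat 49, and the slow fibre mean is lowest on the right array of SNX rat 20.

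Of the 38 members 19 had more than 1 probe set, with 21 probe sets beside the ones used. For right against left on average the other probe sets gave the opposite sign for 4 members (Bmp1, Col11a1, Fbln1 and Serpinh1), none of which had passed. For SNX against sham in the left limb the sign differed for 5 members (Bmp1, Col12a1, Eln, Fbln1 and Serpinh1), so the value of Col12a1 in that comparison depends on the probe set. In the right limb it differed for 6 (Bmp1, Col12a1, Col1a1, Fbln1, Loxl2 and Serpinh1). Averaged over limbs it also differed for 6 (Bmp1, Col11a1, Col12a1, Fbln1, Loxl2 and Serpinh1). Between limbs it differed for 4 in sham rats (Bmp1, Col12a1, Eln and Fbln1) and 1 in SNX rats (Serpinh1).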

How the data were processed

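The authors deposited log2 values for 31099 probe sets on 18 arrays, already normalized, from 0.800 to 15.9. The submitters' processing notes name RMA, GCRMA and Partek, without version or role. Background correction differs between them and affects dim probe sets most. Arrays carry no read depth, so the number of arrays limits the precision. The labels give no array batch.

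After 57 control probe sets were left out, 31042 were tested with limma 3.58.1 (lmFit, eBayes) in R 4.3.3, read with data.table (version 1.17.8). The 4 group means were fitted over all 18 arrays (14 residual and 1.02 prior degrees of freedom). The averages over limbs or over kinds of rat used 1 value per rat (9 rats, 7 residual degrees of freedom). P-values are two-sided and adjusted by Benjamini-Hochberg over all probe sets, with a threshold of 0.05, and "rose" or "fell" means past it. A fit that treats the rat as a random block (limma's duplicateCorrelation, with a consensus of 0.297) stands beside the counts and calls it changes. Limbs pair by animal through the number in the title, and the deviations of both limbs correlated above 0.1 in 7 of 9 rats. Symbols came from the platform annotation, updated through RefSeq (20758 of 20826 probe sets with 1 gene matched, 436 list several genes and 9780 none).

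The 38 members have 59 probe sets. The members and all lists were chosen with earlier results of these data known. Values are given per array for members past the threshold and for the 3 members of each role with the lowest unadjusted p, and by mean, range or count for the rest. The fits were also run on simulated data. The differences added there were larger than most members showed, so that run does not test how well smaller ones are found. Alternatives tried were centring, quantile normalization, leaving out dim probe sets, an intensity trend, averaging the probe sets of a gene, the rat as a random or fixed block, fits of only the groups compared, and leaving out rats or arrays.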

Additional observations from a re-analysis of the deposited data

Results flagged for a closer look

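Within each group of each member, the gap between the highest or lowest array and its nearest neighbour was set against Dixon's critical value (0.829 for 4 arrays and 0.71 for 5). In 11 of 152 member groups 1 array exceeded it, and chance gives about 1 in 20. None of these was weighed further.

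In the left soleus of SNX rats, rat 18 was far below the others for Col14a1 (6.8324 against 7.48 to 7.63) and for Loxl2 (4.5284 against 5.48 to 5.78), and rat 20 was far above them for Fbln5 (4.2534 against 3.67 to 3.75). In the right soleus of SNX rats, rat 18 was low for Col3a1 (11.5105 against 12.62 to 12.93) and rat 49 was high for the dim probe set of Emilin1 (2.2035 against 1.85 to 1.88).

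Among sham rats, the left array of rat 13 was high for Fbln1 (3.5203 against 2.72 to 2.82) and Fbln2 (9.7864 against 8.85 to 8.99), and its right array for Mfap5 (11.2055 against 10.33 to 10.44). The left array of rat 11 was low for Fbln5 (3.6872 against 4.33 to 4.40), and its right array for Sparc (12.2867 against 12.96 to 13.10). The right array of rat 17 was high for Emilin1 (2.1009 against 1.85 to 1.87).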

How the results depend on the processing

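The count of 10 members for right against left averaged over both kinds of rat was 8 after quantile normalization, 12 after centring or with an intensity trend, and 14 with the probe sets of a gene averaged. It was 18 without dim probe sets, which tests 15521 probe sets, and 17 with the replicate block on all 18 arrays (8 of the 10 among them). It was 2 without both limbs of sham rat 17 and SNX rat 49, whose right arrays stood apart, and 0 to 16 with 1 rat left out. Over all probe sets, 1090 were called after quantile normalization, 1091 after centring and 1048 with the trend, against 1090 for the count of 10. Without dim probe sets 2450 of 15521 were called, and with the replicate block 2808 of 31042. Without sham rat 17 and SNX rat 49 it was 377, and 100 to 926 with 1 rat left out. For right against left in SNX rats the count of members was 0, and 2 with the replicate block. That blocked count was 0 after centring or quantile normalization and 8 without dim probe sets. It was 1 without only the right arrays of sham rat 17 and SNX rat 49, and 0 to 8 with 1 rat left out. Over all probe sets the blocked fit called 99, 47 after centring, 15 after quantile normalization and 211 of 15521 without dim probe sets. It called 94 without only those right arrays and 2 to 147 with 1 rat left out. The blocked count in sham rats was 0, and 0 to 1 with 1 rat left out. The 1 was found without SNX rat 49, where 1567 of all probe sets were called, against 559 with all rats. The causes were not tested. The random block changed no other count of members, and with a fixed term for the rat all 3 counts that could be fitted were 0.

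The medians over members kept their direction, and moved by less than the spread between rats, in all 119 alternatives. These include the random block, the fixed term for the rat, the intensity trend and the fits of only the groups compared. Such fits change the errors but not the differences, so their medians could not move. Of 631 alternatives of the 39 results for single named members 516 stayed on the same side of the threshold. Most of these were results that did not pass in either fit. The 88 lost calls all belonged to the 10 members that rose between limbs, the only calls among the 39 results. Each of these members lost its call in 6 (Postn) to 10 alternatives and kept it in 6 to 10. A further 21 alternatives gained a call, and 6 turned the sign, all for Fbln5 between limbs. Its difference was 0.0145 without both limbs of sham rat 17 and SNX rat 49, and -0.1446 to 0.0629 with 1 rat left out. Dim probe sets (Col18a1, Fbln1, Emilin1) have the least certain values. Alternatives of the blocked fits, and the block for both averages, were added after the data were seen.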
